A study of Mus musculus with 9 samples.

Results

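The nuclear genes of the mitochondrial respiratory chain were described in RNA sequencing of mouse hippocampus, where libraries labelled SAE were compared with libraries labelled CTL. Members were chosen by name: symbols that begin with Nduf, Uqcr, Cox4 to Cox8 or Atp5, Sdh followed by a to d, and Cycs. Names marked as pseudogenes were dropped, and a mean of at least 10 counts over the CTL and SAE libraries was required. Of 102 symbols that fit the names 68 were members, out of 38911 genes in the table. They comprised 58 subunits or carriers and 10 assembly factors, and fell into complex I (31), complex II (6), complex III (7), cytochrome c (1), complex IV (11) and complex V (12).

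The respiratory chain passes electrons from NADH (complex I) and succinate (complex II) through ubiquinone to complex III, then by cytochrome c to complex IV, which reduces oxygen. Complexes I, III and IV pump protons across the inner membrane, and ATP synthase, complex V, makes ATP from the returning flow. Most subunits are encoded in the nucleus, while a smaller set is encoded in mitochondrial DNA. In brain this pathway supplies much of the ATP that neurons spend on ion pumping and synaptic transmission.

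The series held 9 libraries of ribosomal RNA-depleted total RNA, 3 per group, from adult BALB/c mice. The CTL group was sham-operated, the SAE group underwent cecal ligation and puncture (a surgical model of abdominal sepsis) with no other treatment, and the CCLF group underwent the same surgery and received flavonoids of Cuscuta chinensis at 200 mg/kg. Time after surgery, sex and age in weeks are not known here. Each group had 3 mice, and the labels call the replicates biological.

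Library totals ran from 4626519 to 4895474 counts, and members took 2.35% to 2.46% of them. Slc17a7, a gene of excitatory neurons, was abundant in both groups (5624 ± 118 CPM in CTL, 6324 ± 73.9 in SAE, mean ± SD, n = 3). CPM here is counts scaled to a common library size of 1e+06 after TMM normalisation. Prox1, a marker of dentate granule cells, had 3 to 11 counts in the CTL libraries and 3 to 8 in the SAE libraries. Whether this low count reflects expression or counting is not known. The acute-phase gene Lcn2, which is usually raised by systemic inflammation, stood at 2941 ± 175 CPM in the libraries labelled CTL and 2.32 ± 0.949 in those labelled SAE. S100a8, a neutrophil alarmin (log2 fold −5.38 ± 0.27), and Gfap, the astrocyte filament that marks reactive gliosis (−2.80 ± 0.21), were lower in SAE as well. Whether the CTL and SAE labels are exchanged cannot be told from these files, and if they were, every direction below would turn. Directions therefore refer to the labels, and "labelled" is meant throughout.

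The CCLF columns were unlike the others, and the comparison of SAE with CTL was fitted without them. For 97.3% of 8011 genes with a mean of at least 10 counts all 3 CCLF counts lay within the range of the 6 CTL and SAE counts, and the same held for 66 of 68 members (97.1%). Each CTL or SAE library lay within the range of the other 5 for 62.7% to 74.9% of these genes. Among the 29 members with a mean of at least 1000 counts, the SD of the 3 CCLF counts was below the square root of their mean, the spread from counting alone, in 23. The same held for 6 of 29 in CTL and 1 of 29 in SAE. Those counts were not scaled for depth, which adds to the spread in CTL and SAE. Totals were 4643509 to 4895474 in CTL, 4626519 to 4870415 in SAE and 4715490 to 4744141 in CCLF. With depth allowed for, the squared difference of each pair of libraries was divided by its counting variance (members with at least 40 counts). The medians were 0.0929 to 0.168 in CCLF, 0.734 to 1.10 in CTL and 0.820 to 1.23 in SAE. Counting alone gives 0.455. Sdha, the flavoprotein of complex II, had CCLF counts of 8152, 8156 and 8158, an SD of 3.06 where counting alone gives 90.3.

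**Figure D1:**
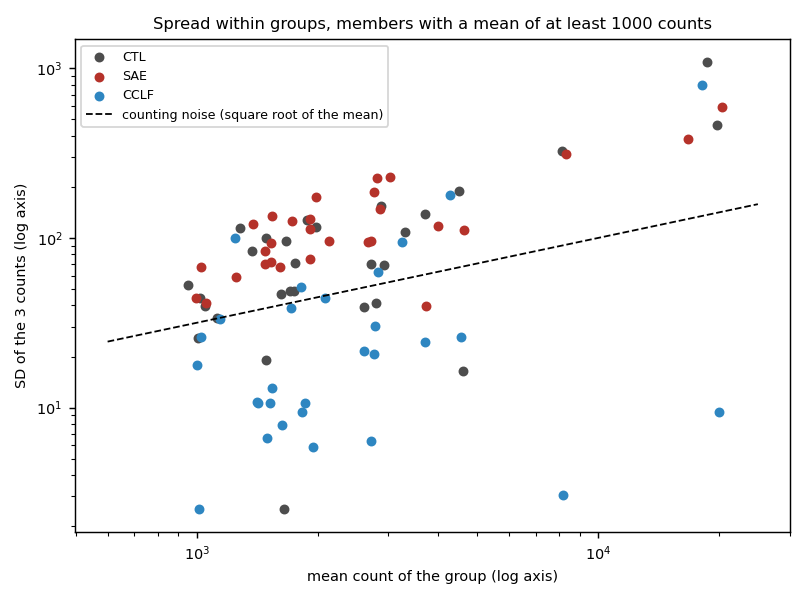
Each point is 1 member in 1 group, with the group's mean count on the x axis and the SD of its 3 counts on the y axis, both logarithmic. The dashed line is the square root of the mean. Counts are not scaled for depth, which differs more within CTL and SAE than within CCLF. Of 29 members, 23 lie below it in CCLF, 6 in CTL and 1 in SAE.

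Of the 34 symbols that fit the names but had a mean under 10 counts, 29 have several RefSeq transcripts and 8 had 0 counts in all CTL and SAE libraries. The 8 were Ndufs1, Ndufs7, Ndufb1, Ndufb2, Ndufa11b, Ndufaf1, Sdhb and Cox8c. Cox4i1, the main isoform of the largest nuclear subunit of complex IV, had 0 to 4 counts per CTL or SAE library, and Cox5a 0 to 7. Genes with 1 RefSeq transcript held 99.3% of the counts of all 102 symbols, and 50 of the 68 members were of this kind. The low values of genes with several transcripts are therefore not read as low expression. The other 5 of the 34 have 1 transcript, among them Cox8c and Ndufa11b, which is annotated as a transcribed pseudogene. Below the threshold stood, among others, Atp5d (mean 6.83), Ndufb4b (6.67) and Atp5g1 (6.17), and just above it Cox6b1 (11.3), Uqcr10 (11.8) and Cox8b (12.8). The 13 rows of proteins encoded in mitochondrial DNA were at 0 in every library, so both genomes could not be compared.

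Promoter sequence is shown for 5 called members with the smallest p-values that have an entry in the RefSeq promoter table, 4 higher and 1 lower in SAE. Cycs is a textbook target of nuclear respiratory factor 1 and CREB, and many respiratory chain promoters carry sites for nuclear respiratory factor 1 and for ETS factors such as GABP. Each line gives the 200 bases before the RefSeq start (GRCm38.p6), 5′ to 3′ on the gene's strand. Capitals mark exact matches to GCATGCGC (core of the nuclear respiratory factor 1 site), CCGGAAG (ETS) or TGACGTCA (CREB), searched on both strands.
Uqcr11 (chr10:80406822-80407021, minus strand): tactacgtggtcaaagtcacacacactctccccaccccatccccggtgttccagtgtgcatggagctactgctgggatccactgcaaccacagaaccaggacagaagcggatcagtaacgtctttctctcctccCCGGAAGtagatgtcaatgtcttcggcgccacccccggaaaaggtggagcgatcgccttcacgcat
Cycs (chr6:50566570-50566769, minus strand): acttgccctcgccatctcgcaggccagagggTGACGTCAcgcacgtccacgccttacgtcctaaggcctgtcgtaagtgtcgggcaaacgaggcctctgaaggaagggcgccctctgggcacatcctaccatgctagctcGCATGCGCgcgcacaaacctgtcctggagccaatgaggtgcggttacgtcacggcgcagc
Ndufs5 (chr4:123718187-123718386, minus strand): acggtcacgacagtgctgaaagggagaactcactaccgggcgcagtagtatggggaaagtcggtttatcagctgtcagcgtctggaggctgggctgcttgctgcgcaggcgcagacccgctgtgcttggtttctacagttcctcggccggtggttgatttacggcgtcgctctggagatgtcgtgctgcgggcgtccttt
Uqcrh (chr4:116075071-116075270, minus strand): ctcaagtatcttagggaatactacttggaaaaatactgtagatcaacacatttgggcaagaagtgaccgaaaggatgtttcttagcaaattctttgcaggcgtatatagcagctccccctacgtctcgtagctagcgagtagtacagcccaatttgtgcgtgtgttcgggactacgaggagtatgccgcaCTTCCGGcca
Uqcrc1 (chr9:108936448-108936647, plus strand): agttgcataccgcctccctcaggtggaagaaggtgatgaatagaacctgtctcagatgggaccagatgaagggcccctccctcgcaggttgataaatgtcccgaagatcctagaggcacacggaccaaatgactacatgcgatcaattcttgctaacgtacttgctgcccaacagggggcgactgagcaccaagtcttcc

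Matches to GCATGCGC were found in the 250 bases before the start in 14.5% of 62 promoters of 60 members with an entry, against 2.26% of all 32851 promoters in the table. For CCGGAAG the shares were 24.2% and 6.91%, and for TGACGTCA 6.45% and 1.55%. Among 17 promoters of members called higher in SAE, 3 held GCATGCGC and 4 held CCGGAAG. Of the members called lower 3 had an entry, and none of the 3 motifs was in those 3 promoters. These motifs do not overlap one another in their letters, and a match is a description of sequence only.

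The summed CPM of the 68 members was nearly level between the groups, and the called members went in both directions. The sum leaves out the 34 symbols under the threshold and the subunits encoded in mitochondrial DNA. Its largest parts were Atp5b (mean 4169 CPM in CTL, 4269 in SAE) and Atp5a1 (3923 and 3524). Called members with a mean of at least 100 counts had log2 folds of at most 0.42 in size. The 4 with fewer counts, Ndufab1, Ndufaf5, Ndufaf7 and Uqcr10, had 0.89 to 1.15, and all have several RefSeq transcripts. Members with 1 RefSeq transcript, called or not, ran from −0.23 to 0.55. The summed CPM of all 68 members was 23686, 24003 and 24010 in the CTL libraries and 23715, 23609 and 24611 in the SAE libraries, so the groups overlapped. With p-values from the edgeR quasi-likelihood F test, adjusted by Benjamini-Hochberg over 8213 tested genes, 22 of 68 members were called at an adjusted p under 0.05, 17 higher and 5 lower in SAE. Over all tested genes 47.6% were called, 23.7% higher and 23.9% lower. Of the members 32.4% were called, 25.0% higher and 7.35% lower. The median log2 fold was 0.07 over members and 0.00 over all genes, and the median size of the log2 fold, sign aside, was 0.14 and 0.37.

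The share of calls among members was also below that of all genes when both had a mean of at least 100 counts. Depth above that floor was not matched. Of 49 members with a mean of at least 100 counts 18 were called (36.7%), against 59.7% of the 3643 tested genes above that floor. None of those 49 had a log2 fold beyond 0.5 in size, against 23.1% of the 3643. The groups did not overlap in 32 members (47.1%), 24 higher and 8 lower in SAE, against 55.7% of all tested genes. Of these 32, 11 were not called, and Ndufb3 was called although its groups overlapped. In bulk tissue, fewer cells of a type and less RNA per cell cannot be told apart.

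**Figure D2:**
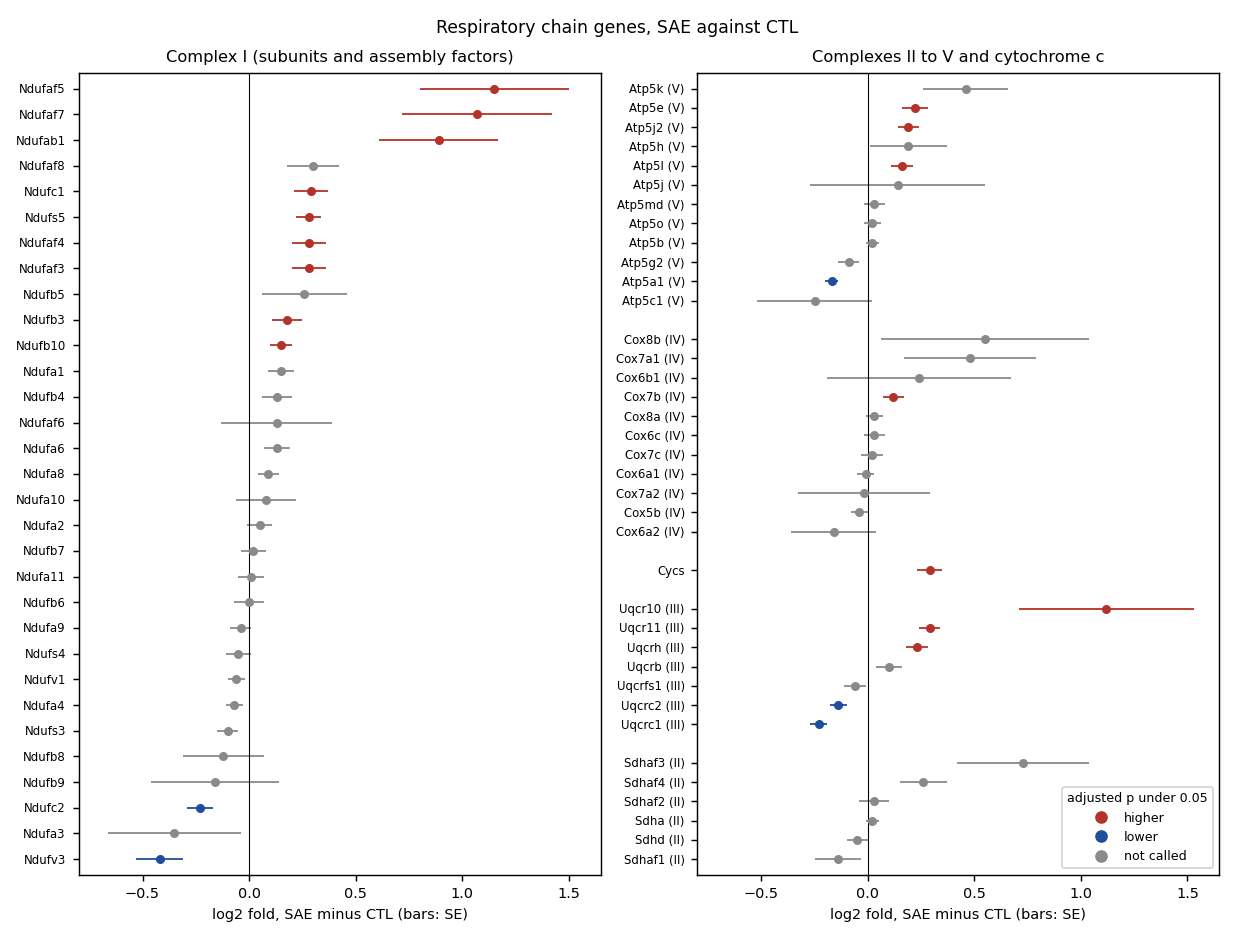
Each point is the log2 fold of 1 member, SAE minus CTL, with its SE as a bar, sorted by fold within complexes. Red is called higher (17), blue called lower (5) and grey not called (46), and all members with a mean of at least 100 counts lie between −0.42 and 0.30.

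In complex I, 5 of 25 subunits were called higher and 2 lower (28.0% called, against 47.6% of all tested genes, median log2 fold 0.02). The NADH-oxidising tip had 1 call among its 4 members. Ndufv3, a small accessory subunit of that tip, had 50.8, 46.3 and 46.0 CPM in CTL and 35.2, 37.8 and 34.6 in SAE. All 3 SAE libraries were below all 3 CTL libraries, with a log2 fold of −0.42 ± 0.11 (± SE, adjusted p = 0.00220). Ndufv3 has 2 RefSeq transcripts, and 100% of its counts fell on 1 of them. Ndufv1, which binds NADH and the flavin, was the second most abundant complex I member by CPM and had 588 ± 7.21 CPM in CTL and 569 ± 10.4 in SAE (−0.06 ± 0.04, adjusted p = 0.259). The ubiquinone-reducing module had 2 members, Ndufs3 (−0.10 ± 0.05) and Ndufa9 (−0.04 ± 0.05), and neither was called.

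In the membrane arm 5 of 18 members were higher and 1 lower (33.3% called, against 35.5% of complex I and 47.6% of all tested genes). Ndufs5, an accessory subunit on the intermembrane side, had 183, 192 and 185 CPM in CTL and 226, 217 and 243 in SAE. The lowest SAE library was above the highest CTL library (log2 fold 0.28 ± 0.06, adjusted p = 0.000314). Ndufc1 and Ndufc2, both small membrane-arm subunits, went in opposite directions. Ndufc1 rose from 75.7 ± 3.76 to 93.3 ± 3.86 CPM (n = 3, 0.29 ± 0.08, adjusted p = 0.00393). Ndufc2 had 200, 182 and 207 CPM in CTL and 173, 164 and 171 in SAE, with no overlap (−0.23 ± 0.06, adjusted p = 0.00345). Ndufb10 rose from 359 ± 4.89 to 401 ± 16.3 CPM (0.15 ± 0.05, adjusted p = 0.0113). Its adjusted p was 0.0527 without CTL replicate 2.

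Ndufb3 had 167, 166 and 173 CPM in CTL and 189, 173 and 216 in SAE, and its call (0.18 ± 0.07, adjusted p = 0.0359) was less secure. It was lost with limma-voom (adjusted p = 0.0696), with DESeq2 (0.0948) and without CTL replicate 1 (0.0984), CTL replicate 2 (0.111) or SAE replicate 3 (0.260, where the log2 fold was 0.09). Ndufab1, the mitochondrial acyl carrier protein that also serves fatty acid synthesis, had 14, 14 and 22 counts in CTL and 35, 27 and 32 in SAE (0.89 ± 0.28, adjusted p = 0.0112). Its adjusted p was 0.0609 with DESeq2 and 0.0509 without CTL replicate 2. Ndufa4, which carries a complex I name but is now counted with complex IV, was the most abundant member of the complex I names by CPM, with 605 ± 17.3 CPM in CTL and 581 ± 28.4 in SAE (−0.07 ± 0.04, adjusted p = 0.210). The other 12 membrane-arm members that were not called ranged from −0.35 (Ndufa3) to 0.26 (Ndufb5).

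Assembly factors of complex I build the enzyme and are not part of it. Of 6 such members 4 were called higher in SAE and none lower (median 0.29). That is 66.7% called, against 47.6% of all tested genes. Ndufaf3 and Ndufaf4 act together early in assembly of the ubiquinone module. Ndufaf3 had 79.5, 84.5 and 92.4 CPM in CTL and 110, 106 and 97.9 in SAE (0.28 ± 0.08, adjusted p = 0.00468). Ndufaf4 had 80.2, 93.4 and 99.4 CPM in CTL and 102, 115 and 116 in SAE (0.28 ± 0.08, adjusted p = 0.00811). The groups did not overlap for either gene, and without CTL replicate 1 the adjusted p of Ndufaf4 was 0.0836 at a log2 fold of 0.19. Ndufaf8, a partner of Ndufaf5, had 25.3 ± 1.15 CPM in CTL and 31.4 ± 0.624 in SAE, also without overlap, and was not called (0.30 ± 0.12, adjusted p = 0.0512).

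Ndufaf5 and Ndufaf7, enzymes that modify core subunits of complex I, had the highest log2 folds of the complex but few counts. Ndufaf5 had 14, 8 and 8 counts in CTL and 27, 17 and 24 in SAE (1.15 ± 0.35, adjusted p = 0.00933). Its 6 transcripts were unevenly counted, and 74.0% of the counts came from 1 that RefSeq lists as a predicted non-coding RNA. Ndufaf7 had 9, 8 and 12 counts in CTL and 24, 16 and 22 in SAE (1.07 ± 0.35, adjusted p = 0.0137). Both groups of counts were separate for each gene, but with DESeq2 the adjusted p was 0.0501 for Ndufaf5 and 0.0746 for Ndufaf7. Without SAE replicate 1 the values were 0.0508 and 0.0627, and without CTL replicate 2 that of Ndufaf7 was 0.0581.

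Complex II, succinate dehydrogenase, had 0 calls among 6 members with edgeR (against 47.6% of all tested genes), DESeq2 or limma-voom. With edgeR 2 of the members had an unadjusted p under 0.05. Sdha, its catalytic flavoprotein, had 1688, 1692 and 1744 CPM in CTL and 1718, 1741 and 1789 in SAE (0.02 ± 0.03, adjusted p = 0.608). Sdhd, a membrane anchor, had 347 ± 8.92 and 338 ± 8.42 CPM (−0.05 ± 0.05, adjusted p = 0.446). The ranges of the groups overlapped in both subunits. Sdhb and Sdhc were at 0 to 1 counts and could not be tested. Among the 4 assembly factors Sdhaf3 (0.73 ± 0.31, adjusted p = 0.0546) and Sdhaf4 (0.26 ± 0.11, adjusted p = 0.0616) had groups that did not overlap, while Sdhaf1 (−0.14 ± 0.11) and Sdhaf2 (0.03 ± 0.07) overlapped. With all 9 libraries in the fit the adjusted p-values of Sdhaf3 and Sdhaf4 were 0.0222 and 0.0291. These were the 2 complex II members called in that fit.

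Complex III had calls in 5 of 7 members (71.4%, against 47.6% of all tested genes). Its core subunits Uqcrc1 and Uqcrc2 were lower and the small subunits Uqcr11, Uqcrh and Uqcr10 higher in SAE. Uqcrc1, a large core protein on the matrix side, had 1003, 962 and 953 CPM in CTL and 837, 826 and 845 in SAE. The groups did not overlap, and of all members this fall of 14.7% had the smallest p (log2 fold −0.23 ± 0.04, adjusted p = 2.79e-05). Uqcrc2, the other core protein, had 693, 696 and 703 CPM in CTL and 622, 610 and 678 in SAE (−0.14 ± 0.04, adjusted p = 0.00921). Its SAE replicate 3 lay nearest the CTL libraries, and the call was lost without SAE replicate 1 (adjusted p = 0.0721) or SAE replicate 2 (0.117). Uqcrfs1, the Rieske iron-sulphur protein that passes electrons on, had 417 ± 24.8 and 402 ± 9.77 CPM (−0.06 ± 0.05, adjusted p = 0.301).

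Of the 4 small complex III subunits 3 were called higher (75.0%, against 23.7% of all tested genes), 1 of them on few counts. Uqcr11 had 211, 220 and 212 CPM in CTL and 265, 255 and 270 in SAE, without overlap (0.29 ± 0.05, adjusted p = 7.67e-05). Uqcrh, the hinge protein that contacts cytochrome c1, had 339, 351 and 362 CPM in CTL and 392, 405 and 448 in SAE, again without overlap (0.23 ± 0.05, adjusted p = 0.000652). Uqcrb, a small subunit near the ubiquinone site, had 192 ± 8.64 and 208 ± 10.8 CPM and was not called (0.10 ± 0.06, adjusted p = 0.164). Uqcr10 had 9, 8 and 5 counts in CTL and 20, 10 and 19 in SAE (1.12 ± 0.41, adjusted p = 0.0258), and 90.6% of its counts were those of a transcript that RefSeq lists as non-coding. Its call was lost with DESeq2 (adjusted p = 0.112), without a filter on low counts (0.0512), and without CTL replicate 2 (0.0556), CTL replicate 3 (0.111), SAE replicate 1 (0.121) or SAE replicate 3 (0.0898). The upstream sequences of Uqcr11 and Uqcrh printed above each held a CCGGAAG match, and that of Uqcrc1 held none of the 3 motifs.

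Cycs, the gene of somatic cytochrome c, the soluble carrier between complexes III and IV that also takes part in apoptosis once released, had 237, 240 and 232 CPM in CTL and 279, 279 and 314 in SAE. The lowest SAE library was above every CTL library, and the rise was 21.9% (log2 fold 0.29 ± 0.06, adjusted p = 0.000151). Over the alternatives its adjusted p ran from 1.10e-05 to 0.00196.

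Complex IV, cytochrome c oxidase, was nearly level over its 11 members, and 1 was called (9.09%, against 47.6% of all tested genes). Its 2 most abundant members by CPM were Cox8a, with 945 ± 18.2 CPM in CTL and 970 ± 7.44 in SAE (0.03 ± 0.04, adjusted p = 0.598), and Cox6a1, with 781 ± 19.5 and 783 ± 10.8 (−0.01 ± 0.04, adjusted p = 0.896). Cox5b, Cox6c and Cox7c had log2 folds of −0.04 ± 0.04, 0.03 ± 0.05 and 0.02 ± 0.05. Cox7b, a small membrane subunit, had 366, 369 and 365 CPM in CTL and 408, 381 and 421 in SAE (0.12 ± 0.05, adjusted p = 0.0362). All SAE values were above the CTL values, but the call was lost with DESeq2 (adjusted p = 0.100), without a filter on low counts (0.0904), and when any 1 library other than SAE replicate 2 was left out (0.0700 to 0.114). The summed CPM of complex IV was 3625, 3618 and 3612 in CTL and 3666, 3631 and 3780 in SAE, a ratio of 1.02.

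The tissue isoforms of complex IV, best known from heart and skeletal muscle, were low. Cox6a2 had 36 to 57 counts per CTL or SAE library (−0.16 ± 0.20), Cox7a1 13 to 23 (0.48 ± 0.31) and Cox8b 5 to 24 (0.55 ± 0.49). None was called (adjusted p = 0.534, 0.211 and 0.374). Per kilobase of transcript, Cox6a1 had a mean level of 1369 CPM and Cox6a2 15.0, while Cox8a had 1741 and Cox8b 7.48. The usual isoforms Cox7a2 (−0.02 ± 0.31) and Cox6b1 (0.24 ± 0.43) have several transcripts and had 14 to 26 and 7 to 18 counts per CTL or SAE library, so their levels were not compared with those of other genes. Their paralogs Cox7a2l and Cox6b2, and the isoform Cox4i2, had 0 to 4 counts and were no members.

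Complex V, ATP synthase, had 3 members called higher and 1 lower of 12 (33.3% called, against 47.6% of all tested genes). Atp5b, the catalytic beta subunit, had the highest CPM of all members, with 4186, 4155 and 4165 CPM in CTL and 4229, 4255 and 4324 in SAE. These groups did not overlap, but the difference was small and not called (0.02 ± 0.03, adjusted p = 0.551). Atp5a1, the alpha subunit that alternates with beta in the same ring, had 3785, 4053 and 3931 CPM in CTL and 3506, 3522 and 3543 in SAE. Its SAE libraries were all below the CTL libraries (−0.17 ± 0.03, adjusted p = 0.000110), so the transcripts of these partner subunits moved unequally. Per kilobase of transcript, the mean levels were 2202 CPM for Atp5b and 1507 for Atp5a1.

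The smaller ATP synthase subunits that were called were all higher. Atp5e, the epsilon subunit of the central stalk, had 174, 188 and 187 CPM in CTL and 216, 199 and 229 in SAE (0.22 ± 0.06, adjusted p = 0.00439). Atp5j2, subunit f of the membrane part, had 251, 280 and 280 CPM in CTL and 297, 311 and 323 in SAE (0.19 ± 0.05, adjusted p = 0.00596). Atp5l, subunit g of the same part, rose from 397 ± 16.9 to 447 ± 18.5 CPM (0.16 ± 0.05, adjusted p = 0.00769). The groups of all 3 genes did not overlap. Without CTL replicate 1 the adjusted p was 0.0710 for Atp5j2 and 0.0674 for Atp5l. Atp5o, the stalk protein that confers oligomycin sensitivity, had 549 ± 11.1 and 562 ± 9.51 CPM (0.02 ± 0.04, adjusted p = 0.713). Atp5g2, a gene of the proton-carrying c-ring, had 220, 218 and 226 CPM in CTL and 202, 210 and 215 in SAE (−0.09 ± 0.05, adjusted p = 0.171). The other c-ring genes, Atp5g1 and Atp5g3, had 1 to 11 counts and were no members.

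**Figure D3:**
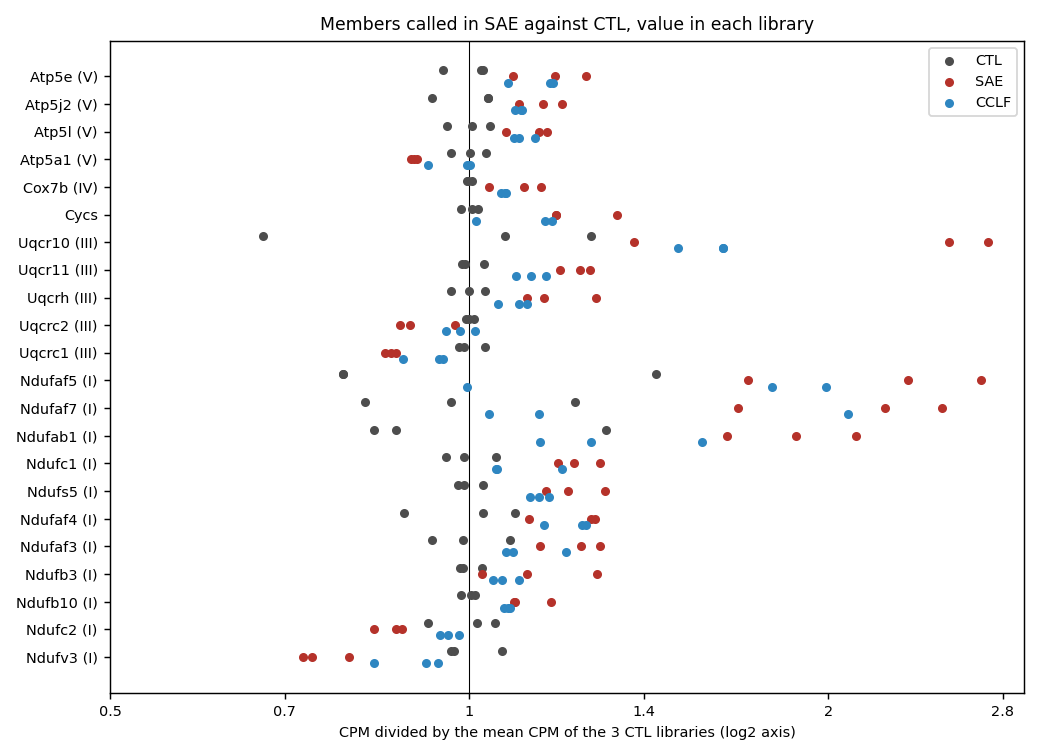
For each of the 22 called members, points give the CPM of each library divided by the mean of the 3 CTL libraries, on a log2 axis. The CTL and SAE points are separate for all but Ndufb3, and the mean of the CCLF points lies between the 2 other means for all 22.

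Among the 50 members with 1 RefSeq transcript, shorter transcripts had the higher median fold. Lengths came from the GENCODE transcripts paired with the same RefSeq entries, and the division at 1000 bases was chosen after the values were seen. Of 33 members of up to 1000 bases 9 were called higher and 1 lower (median log2 fold 0.10). Of 17 longer members 4 were called higher (Cycs, Ndufaf3, Ndufaf4 and Cox7b, the last at 1001 bases) and 3 lower (Uqcrc1, Uqcrc2 and Atp5a1), with a median of −0.05. Across these 50 genes, which share the same libraries, the Spearman correlation of log2 fold with length was −0.39, given as a description. Over all tested genes with 1 transcript the medians of both length classes were alike: of 468 tested genes of up to 1000 bases 96 were higher and 138 lower (median −0.02), and of 3448 longer ones 906 were higher and 1076 lower (median −0.03).

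**Figure D4:**
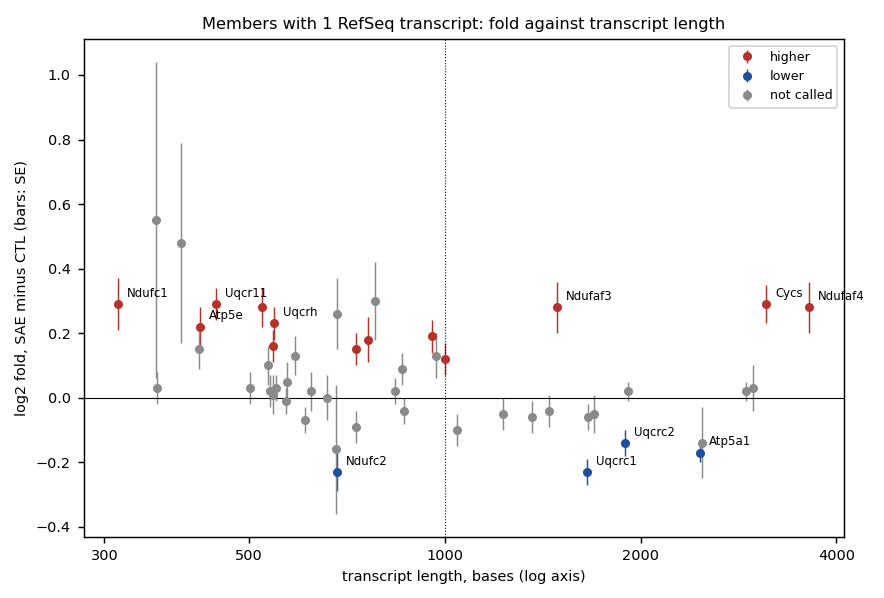
The log2 fold of each of 50 members with 1 RefSeq transcript, SAE minus CTL with its SE, is plotted against transcript length on a log axis. Left of the dotted line at 1000 bases 9 of 33 points are called higher and 1 lower, and right of it 4 of 17 are higher and 3 lower.

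Other genes that serve the respiratory chain were taken from lists chosen for this pathway. Over all tested genes 47.6% were called, 23.7% higher and 23.9% lower. Counts in each list below are to be read beside these shares. Assembly factors outside the naming rule had 10 higher and 3 lower of 22 tested (59.1% called, median 0.24). Coa3 and Coa6, which act in complex IV assembly, rose from 114 ± 6.96 to 173 ± 4.53 CPM (0.59 ± 0.06, adjusted p = 5.81e-08) and from 16.5 ± 2.13 to 32.2 ± 3.43 (0.95 ± 0.15, adjusted p = 7.37e-06). Timmdc1, a complex I assembly factor, rose from 18.2 ± 2.98 to 36.6 ± 3.05 CPM (1.00 ± 0.14, adjusted p = 2.76e-06).

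Pathways that feed the chain were mixed. Of 13 tested genes of the citric acid cycle and pyruvate entry 4 were higher and 4 lower (median 0.01). Mpc2, a subunit of the mitochondrial pyruvate carrier, rose by a log2 fold of 0.46 ± 0.06 (adjusted p = 9.81e-07) and Fh1, fumarase, by 0.24 ± 0.06 (adjusted p = 0.00215). Dlat, a pyruvate dehydrogenase component, had a log2 fold of −0.21 ± 0.04 (adjusted p = 0.000259). Of 15 glycolysis and lactate genes 2 were higher and 3 lower (median −0.03). Pdk4, the kinase that shuts off pyruvate dehydrogenase, went from 152 ± 20.1 CPM in CTL to 45.4 ± 4.53 in SAE (−1.75 ± 0.10, adjusted p = 1.61e-11). Hk2, an inducible hexokinase, had few counts, 19, 20 and 18 in CTL and 9, 6 and 5 in SAE (−1.51 ± 0.38, adjusted p = 0.00204). Tpi1, triosephosphate isomerase, was higher by 0.16 ± 0.04 (adjusted p = 0.000786).

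Of 7 tested carriers and energy-transfer genes Ckb, brain creatine kinase, was the 1 called, from 2490 ± 41.0 to 3147 ± 108 CPM (0.33 ± 0.03, adjusted p = 1.39e-08). Of 6 tested antioxidant genes 2 were higher and 1 lower (median 0.01). Sod2, the manganese superoxide dismutase, which inflammatory signals induce, had 727 ± 89.2 CPM in CTL and 513 ± 21.9 in SAE (−0.51 ± 0.09, adjusted p = 0.00238). Glrx2 rose by 0.89 ± 0.17 (adjusted p = 0.000179) and Prdx3, a mitochondrial peroxidase, by 0.18 ± 0.06 (adjusted p = 0.0179). Of 17 regulators of mitochondrial biogenesis 4 could be tested, with 2 higher and 1 lower (median −0.04). Those called were Twnk, the mitochondrial DNA helicase (0.60 ± 0.12, adjusted p = 0.000289), Yy1 (0.12 ± 0.05, adjusted p = 0.0471) and Gabpb1, a subunit of the ETS factor GABP (−1.35 ± 0.34, adjusted p = 0.00197). Gabpb1 had few counts, 26, 34 and 24 in CTL and 6, 10 and 17 in SAE. Ppargc1a, Nrf1 and Esrra had means under 10 counts, and Gabpa had 0 counts in the CTL and SAE libraries. These low values are not read as low expression either. Of 3 tested coenzyme Q synthesis genes 0 were called with edgeR, DESeq2 or limma-voom, and 0 had an unadjusted p under 0.05 (median log2 fold 0.07), and 10 of the 13 in that list had means under 10 counts.

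Markers of several cell types also moved with the labels. Over all tested genes 23.7% were called higher and 23.9% lower. The summed CPM of 10 neuron markers was 10989 to 11409 in CTL and 12526 to 12849 in SAE, with 4 higher and 0 lower of 8 tested (Slc17a7 0.16 ± 0.03, Nefl 0.27 ± 0.04). Syt1 and Rbfox3 had means under 10 counts. Oligodendrocyte markers summed to 904 to 985 CPM in CTL and 1346 to 1544 in SAE (6 higher of 7 tested, 0 lower), microglia markers to 439 to 570 and 770 to 834 (6 higher of 6), and endothelial and pericyte markers to 475 to 533 and 748 to 798 (3 higher and 1 lower of 4). Astrocyte markers summed to 3696 to 3948 and 3856 to 3906 CPM (3 higher and 6 lower of 9). Choroid plexus markers summed to 527 to 829 and 702 to 1416 CPM (1 higher of 5, 0 lower), and blood cell markers to 628 to 667 and 459 to 567 CPM (0 higher and 4 lower of 6). P2ry12, Gpr34, Pecam1, Pdgfrb, Prlr, Slc4a5, Alas2 and S100a9 were at 0 in all 6 libraries. Many respiratory chain symbols with several RefSeq transcripts were nearly uncounted, so these zeros are not read as absent expression. The part of the cell type markers in the member differences was not tested.

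In the CCLF columns the mean CPM of all 22 called members lay between the CTL and SAE means, as did that of 58 of all 68 members (85.3%). The same held for 99.1% of all 3912 called genes and 83.5% of all tested genes. In CCLF against SAE, 0 members were called with edgeR over all 9 libraries and 11 had an unadjusted p under 0.05 (11.3% of 8479 tested genes were called), and 2 were called in CCLF against CTL, Ndufs5 and Uqcr11, both higher (10% of tested genes). These comparisons share libraries with each other and with SAE against CTL. In 23 of the 29 members with a mean of at least 1000 counts, the CCLF counts varied less than counting alone gives. The p-values of these comparisons therefore do not carry their usual meaning, and the values are given for description. Uqcr11 had 234, 241 and 248 CPM in CCLF, Uqcrc1 918, 925 and 856, Cycs 277, 273 and 239, and Atp5a1 3924, 3624 and 3902. The CCLF spread of Uqcrc1, Cycs and Atp5a1 was not tight (SD 178, 99.9 and 796 counts, where counting alone gives 65.3, 35.3 and 135). Ndufb6, a membrane-arm subunit of complex I, had a wide CCLF spread too. It had 145 to 171 CPM in CTL and 150 to 175 in SAE, but 89.6, 144 and 21.7 in the 3 CCLF columns, all below the other 6 libraries.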

How the data were processed

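The authors deposited whole-number counts per RefSeq transcript for 9 hippocampus libraries. Per the submitters' processing notes, fastp and Salmon were used. Their versions and settings, the transcript index and the genome build: not given in the sources used here. All 120312 transcripts were matched to symbols with the RefSeq table of GRCm38.p6, used for names and promoters, and summed to 38911 genes. SAE was compared with CTL in the 6 libraries of those groups, with filterByExpr, TMM scaling, edgeR's quasi-likelihood F test (robust) and Benjamini-Hochberg adjustment over all tested genes, called at an adjusted p under 0.05. CCLF was compared in a fit of all 9 libraries. SE was taken as |log2 fold| over the root of the F statistic. Printed CPM uses scaling factors of all 9 libraries, so it can differ slightly from the fitted folds. Members, lists and tests were chosen with earlier results of these data known, so counts of members are descriptive, and no list was tested as a set. Named members were all called ones (at most 30), the 2 of highest CPM in each complex, complex II subunits, Cycs and paralog sets, and up to 3 called genes of the smallest p per list. Any other member named was chosen after its values were seen. Paralogs and processed pseudogenes are common in these families, and how reads were shared among them is not known. The steps were tested on simulated data, drawn with the same spread for all genes. There 26 of 100 genes changed by a log2 fold of 0.32 in size were called, 77 of 91 at a size of 1, and 5 of 7514 unchanged genes. A member that was not called is therefore not shown to be unchanged. The alternatives were DESeq2 size factors, DESeq2, limma-voom, no filter, 1 CPM in 3 libraries, all 9 libraries, a replicate block, the top transcript per gene, and each library left out. A fit of genes with 1 RefSeq transcript was added after values were seen. Versions: DESeq2 1.42.0, edgeR 4.0.16 and limma 3.58.1 in R 4.3.3, with numpy 2.4.6, pandas 2.3.3 and matplotlib 3.10.9 in Python 3.11.15.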

Additional observations from a re-analysis of the deposited data

How the results depend on the processing

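Of the 22 calls in SAE against CTL, 11 kept their direction and call in all alternatives in which the gene was tested: Ndufaf3, Ndufc1, Ndufs5, Uqcr11, Uqcrh, Atp5e and Cycs higher, and Ndufc2, Ndufv3, Uqcrc1 and Atp5a1 lower. The number of members called was 16 to 26 over the alternatives that kept all 6 libraries, and 17 to 24 when 1 library was left out. The number called higher fell from 17 to 11 with the DESeq2 Wald test, which also gave 7 for complex I in place of 11 and 0 for complex IV in place of 1. Complex IV had 0 without a filter as well. Complex II had 2 with all 9 libraries and 1 among genes with 1 RefSeq transcript, in place of 0. The fit of genes with 1 RefSeq transcript called 2565 genes in all, since fewer genes were tested. Leaving out 1 library gave 7 to 12 calls in complex I, 0 to 1 in complex II, 3 to 5 in complex III, 0 to 1 in complex IV (median log2 fold 0.01 to 0.07) and 2 to 5 in complex V. For CCLF it gave 0 to 1 members called against CTL and 0 to 1 against SAE, with 352 to 834 and 501 to 907 genes in all, against 852 and 956. A fit of only the 6 libraries compared called 502 genes in CCLF against CTL. Signs near 0 reversed for members that were not called. Cox6a1 gave 0.00 with all 9 libraries, 0.02 among genes with 1 RefSeq transcript and −0.03 to 0.01 when 1 library was left out. When 1 library was left out, Cox6b1 ranged from −0.12 (without SAE replicate 1) to 0.68, and Cox7a2 from −0.25 to 0.22, above 0 without CTL replicate 1 (0.11), CTL replicate 2 (0.10) or SAE replicate 2 (0.22). Otherwise the cause of these shifts was not tested.

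The replicate numbers did not pair the libraries: deviations of same-numbered CTL and SAE libraries correlated at 0.02, −0.03 and 0.02, and 1 of 3 CTL libraries correlated best with its own number. With a replicate block 22 members were called, 17 higher and 5 lower, and in CCLF against CTL 4 in place of 2.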
